A study of Mus musculus with 24 samples.

Results

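Thymus RNA of 6 wild-type mice was compared with a pool of fibroblast RNA on 2-colour Agilent arrays. These are 6 of the 24 arrays of the series, chosen by their wild type label. The mice were C57BL/6, 15 weeks old, and each gave 1 array, on a different slide for each mouse. The 24 arrays of the series lay on 6 slides, so each slide also carried arrays of other genotypes. Mouse and slide cannot be told apart among the wild-type arrays. Each genotype had 3 female and 3 male mice, and the sex of a given mouse is not in the labels. The remaining 18 arrays hold thymus of p27 knockout, stathmin knockout and double knockout mice, 6 each, and the study asked how p27 and stathmin control proliferation in the animal. Thymus carried the dye Cy5 and the reference carried Cy3 on every array. The reference was 1 common pool of RNA from fibroblasts of all the genotypes, so it also holds RNA of fibroblasts without p27, without stathmin and without both. The labels do not give the tissue from which the fibroblasts came or how they were grown.

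The thymus is the organ in which T cells develop. Thymocytes rearrange their T cell receptor genes in the cortex, pass through a stage that carries both CD4 and CD8, and are selected on peptides shown by thymic epithelium before they leave through the medulla. Fibroblasts are mesenchymal cells that secrete and remodel collagen-rich matrix and pull on it through stress fibres of actin. The comparison therefore sets a whole lymphoid organ against a mesenchymal cell type, and all values below are log2 ratios of thymus over the pool, so that 1 unit is a factor of 2 and a negative value means more RNA in fibroblasts. In RNA of a whole organ, fewer cells of a type and less RNA per cell cannot be told apart. Dye and tissue cannot be told apart either, because the dyes were never swapped. The pool is a single sample, so its own spread is not in any error given here. P-values measure the spread between the 6 mice.

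The 6 arrays were alike in most respects, and replicate 4 was dim in the thymus channel. The log2 ratios of all genes correlated between arrays by 0.767 to 0.954 (Pearson's r across genes, 15 pairs). Between 64.1% and 87.4% of thymus spots and between 58.2% and 66% of pool spots stood well above background. The 99th percentile of thymus intensity was 56.3 kilo-units in replicate 4 and 110 in replicate 6, against 179 to 286 in the other arrays. That of the pool, the same RNA each time, was 126 to 190. Y-linked genes and Xist, which silences an X chromosome in females, split the arrays into 3 and 3. Ddx3y read -7.91 to -6.46 in replicates 1 to 3 and 0.23 to 1.27 in replicates 4 to 6, and Xist read 0.77 to 1.71 in the former and -2.02 to -1.01 in the latter. These counts are those the labels give for the sexes.

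After a filter on dim probes, 21716 genes were tested. A gene was called when its mean ratio over the 6 arrays exceeded 2-fold in limma's treat test, with Benjamini-Hochberg adjustment over all genes and a threshold of 0.05. By this rule 2203 genes were higher in thymus (10.1% of those tested) and 2652 were higher in fibroblasts (12.2%), 4855 in all (22.4%). Of the called genes, 4767 had all 6 arrays on the same side of 0. The median ratio over all genes was 0.115 and the median SD between mice 0.41. Ratios of 16-fold or more were found for 309 called genes in thymus and 219 in fibroblasts. When arrays were only centred on their median, without loess, the thymus share of the calls was 31.5% (1479 genes) instead of 45.4%. Each normalization centres an array, so a shift of all genes together could not be seen.

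**Figure D1:**
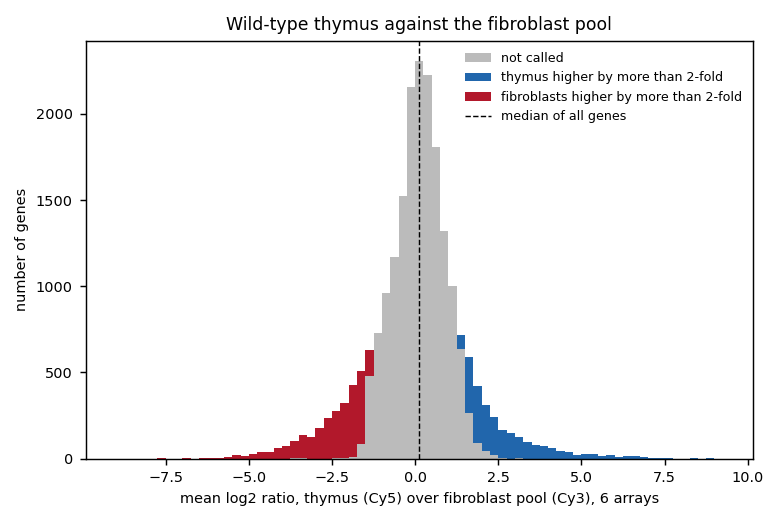
Number of genes by mean log2 ratio of thymus over the fibroblast pool in 6 wild-type arrays. Blue marks the 2203 genes called higher in thymus, red the 2652 called higher in fibroblasts and grey the rest, and the dashed line is the median of all genes at 0.115.

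Detection was uneven between the channels. Of the genes tested, 14377 stood well above background in both channels on all 6 arrays. Another 601 were above background in thymus on all 6 and in the pool on none, and 184 of these were called. The reverse held for 52 genes, of which 34 were called. Such genes get a minimum fold in place of a measured one. It sets the bright channel against the faintest signal that still counted as above background or against the gene's own dim signal, whichever was higher. For the genes seen only in fibroblasts that are named below, the gene's own signal was the higher, so their minimum equals the fitted fold and is a minimum only because the thymus signal was not above background.

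The largest ratios in thymus belonged to genes of T cells and of the organ around them. Among genes measured in both channels, Cd8b1, the beta chain of the CD8 co-receptor, came first. Its ratio was lowest at 8.23, had a median of 8.79 and was highest at 9.91. All 6 mice lay far above the pool, a 462-fold difference (adjusted p = 1.56e-07). Myb, a transcription factor of blood progenitors and thymocytes, read 7.63 to 9.38 (median 8.22, 312-fold). Ptprc, which encodes the leukocyte phosphatase CD45, read 7.04 to 8.03 (median 7.81, 209-fold). Lck, the kinase that starts T cell receptor signalling, read 6.95 to 8.28 (median 7.61, 202-fold). The gamma chain gene Cd3g stood at 7.02 ± 0.32 (SD, n = 6) and Satb1, a chromatin organiser of thymocytes, at 7.26 ± 0.40. The small GTPase gene Rhoh (128-fold), the actin regulator Gmfg (7.21 ± 0.52) and the immunoglobulin heavy chain entry Ighg (6.86 ± 0.78) also reached the 12 highest, as did Nsg2 (7.26 ± 0.94). Prss16 and Cfd are known from other cells. Prss16, a serine protease of cortical thymic epithelium, read 7.10 to 8.67 (182-fold), and Cfd, the adipocyte protease adipsin, read 6.83 to 8.49 (202-fold).

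Some of these genes have another probe that disagrees. For Cd8b1 the other probe read -0.47 ± 0.36 and was above background in both channels on all 6 arrays. The other probe of Prss16 read 1.35 ± 0.36, and the 2 others of Ptprc read 1.99 ± 0.71 and 4.95 ± 0.54. The other probe of Satb1 read 5.81 ± 0.69 and that of Gmfg 6.15 ± 0.33. Other probes of Myb read 8.53 ± 0.60, 6.04 ± 0.83 and 1.86 ± 1.33, and those of Ighg 3.07 ± 0.84 and 3.15 ± 0.70. Among 7165 genes with several probes, 2286 had probes of opposite sign, and among 2049 called genes 293 did. The brightest probe stands for each gene here.

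Genes seen only in thymus were led by T cell genes too. Cd28, the costimulatory receptor, read 5.53 to 6.98 and was at least 83.8-fold higher (adjusted p = 2.55e-07). Themis, needed for thymocyte selection, was at least 65.8-fold higher, and Slamf1, an adhesion receptor of lymphocytes, at least 44.5-fold. After these 3 the bounds dropped to at least 19.7-fold for the transporter gene Abcg3 and at least 17.8-fold for the receptor kinase gene Grk3. Grk3 has another probe at -0.04 ± 0.20. The B cell gene Fcrla (at least 15.5-fold) and Cdh5, the cadherin of vessel walls (at least 15.0-fold), are known from other cell types. B3galt5, Slc5a9, Ipcef1, Tctex1d1 and Il17rb followed, at least 17.3-fold to at least 13.3-fold higher. Other probes read 2.58 ± 0.70 for Cd28, 1.93 ± 1.02 for Slamf1, 1.36 ± 1.18 for Cdh5 and 0.30 ± 0.46 for Il17rb.

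**Figure D2:**
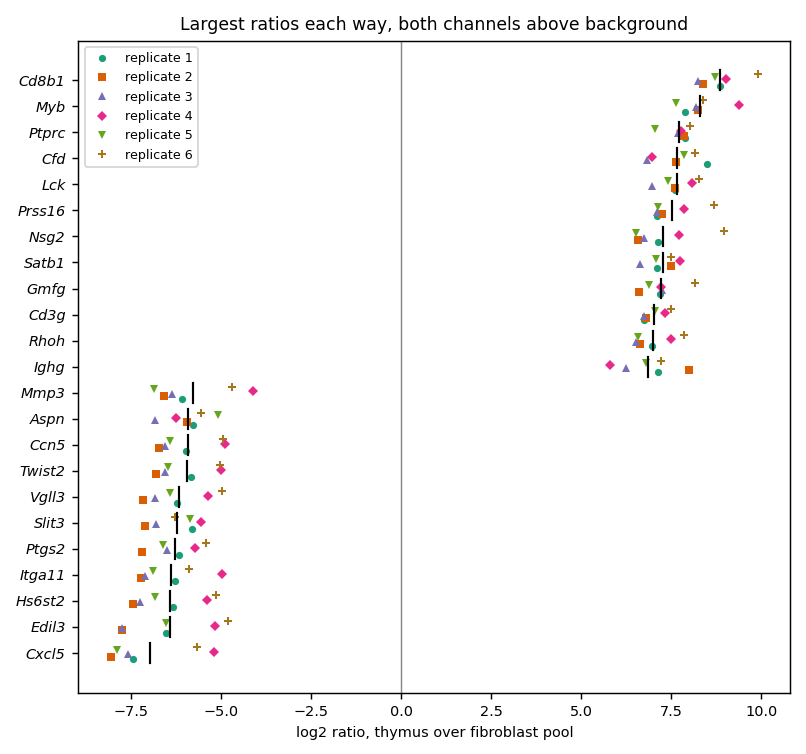
Log2 ratio of thymus over the fibroblast pool for the 12 largest thymus ratios and 11 of the 12 largest fibroblast ratios among genes above background in both channels, with 1 marker per replicate and a bar at the mean. Every marker of a gene lies on the same side of 0, and replicates 4 and 6 are the 2 nearest to 0 for 9 of the 11 fibroblast genes.

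Almost the whole T cell receptor machinery was higher in thymus. Of 30 genes of the receptor, its co-receptors and its first signalling steps, 28 were called in thymus and 0 in fibroblasts, with a median ratio of 5.40 against 0.115 over all genes. Cd3d read 5.92 to 7.27 (median 6.35, 91.8-fold), with every mouse above the pool. The co-receptor genes Cd8a and Cd4 stood at 5.87 ± 0.62 and 4.58 ± 0.84. Cd4 was lowest in replicate 5, at 3.00, and a filter that asked for signal in both channels took another Cd4 probe that was not called (1.40, adjusted p = 0.17). Behind the receptor, Zap70, the kinase that binds the phosphorylated chains, read 5.40 ± 0.48, and the adaptors Lat and Lcp2 read 5.09 ± 0.64 and 6.78 ± 0.30. Rasgrp1, which links the receptor to Ras, stood at 6.52 ± 0.51. Cd3e was lowest among the CD3 genes at 2.19 ± 0.42 (4.55-fold). The 2 genes not called were Fyn, a Src-family kinase that fibroblasts also use, at 0.08 ± 0.20, and Nfatc3 at 1.00 ± 1.01.

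The 3 lymphoid genes that cut and tailor receptor genes were all called in thymus, and of 7 general end-joining genes 3 were. Rag1, a subunit of the recombinase, read 5.42 to 6.81 (median 5.74, 63.2-fold, adjusted p = 4.88e-07). Dntt, which adds untemplated nucleotides, read 6.18 to 7.39 (median 6.44, 102-fold). Rag2, the partner of Rag1, was above background only in thymus and was at least 4.75-fold higher. The general end-joining genes had a median of 0.90, with 3 of 7 called in thymus, against 10.1% of all genes. Xrcc6, the Ku70 subunit, read 3.01 to 3.61 and Lig4, the ligase, 1.82 to 2.79, both above the pool in all 6 mice, and the nuclease gene Dclre1c was called too at 2.01 ± 0.34. Xrcc5, the other Ku subunit, stood at 0.03 ± 0.21 and Prkdc, the DNA-dependent kinase, at 0.90 ± 0.31, neither of them called. Lig4 was no longer called without loess (1.57) and Dclre1c with the mean of all probes (0.87).

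Markers of CD4 and CD8 double-positive thymocytes were all higher in thymus, 14 of 14 measured, with a median of 5.82. Ptcra, the invariant chain of the pre-T cell receptor, read 4.44 to 5.40 (median 4.66, 27.2-fold). Arpp21, an RNA-binding phosphoprotein, read 8.49 ± 0.78, with the pool above background on only 4 arrays. The chemokine receptor gene Ccr9, which responds to thymic epithelium, stood at 5.03 ± 0.63. Cd1d1, which selects natural killer T cells, had the lowest ratio of the list at 2.05 ± 0.22 and was not called without loess (1.23).

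Transcription factors of the T lineage were mostly higher in thymus, with 17 of 25 called and a median of 3.02. Lef1 and Tcf7, the nuclear partners of beta-catenin, stood at 6.69 ± 0.33 and 5.38 ± 0.53. Bcl11b, which holds T cell commitment, read 5.38 to 6.39 (median 6.01, 59.2-fold), and Gata3 read 3.98 to 4.52 (median 4.34, 20.0-fold). Gfi1, a repressor of blood cells, stood at 6.03 ± 0.60. Notch1, the receptor that specifies the T lineage, was 1.48 ± 0.21 and was called, while Notch3 (-0.26 ± 0.27), Runx1 (-0.10 ± 0.85) and Runx3 (0.59 ± 0.67) were not. Zbtb7b, which directs CD4 lineage choice, was the exception in the other direction. It read -2.31 to -1.07 and was higher in fibroblasts in all 6 mice, close to the threshold (adjusted p = 0.0484). That call was lost without replicate 2, 3 or 4 (adjusted p of at most 0.149) and with no filter on dim probes (adjusted p = 0.0581), and the call of Notch1 was lost without loess (1.11).

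The promoters of 3 thymus genes are shown because their start regions hold short motifs bound by factors of lymphoid cells. RefSeq windows of 300 bases, 250 before and 50 after a gene's start (build GRCm38.p6), matched 13393 of the 21716 genes by symbol. Printed are the 250 bases before the start, 5′ to 3′ on the gene's own strand. Capitals mark CAGCTG, an E-box read by E proteins, in Rag1 and Ptcra, and AGGAAG or its reverse complement, an ETS core, in Lck. The genes were picked after the matches were seen. Rag1 lies at chr2:101649533-101649782 on the minus strand, Ptcra at chr17:46763713-46763962 on the minus strand, and the Lck window at chr4:129573642-129573891 on the minus strand is 1 of its 2 listed starts.
Rag1: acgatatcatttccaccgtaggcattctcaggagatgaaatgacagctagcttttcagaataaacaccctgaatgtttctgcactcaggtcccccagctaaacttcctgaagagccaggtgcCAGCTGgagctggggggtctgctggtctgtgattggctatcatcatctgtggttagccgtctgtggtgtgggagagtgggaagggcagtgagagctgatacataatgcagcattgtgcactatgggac
Ptcra: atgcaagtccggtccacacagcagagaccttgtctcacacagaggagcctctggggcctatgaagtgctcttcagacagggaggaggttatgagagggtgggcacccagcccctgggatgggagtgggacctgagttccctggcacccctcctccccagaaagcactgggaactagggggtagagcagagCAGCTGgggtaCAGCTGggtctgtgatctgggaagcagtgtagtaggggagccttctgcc
Lck: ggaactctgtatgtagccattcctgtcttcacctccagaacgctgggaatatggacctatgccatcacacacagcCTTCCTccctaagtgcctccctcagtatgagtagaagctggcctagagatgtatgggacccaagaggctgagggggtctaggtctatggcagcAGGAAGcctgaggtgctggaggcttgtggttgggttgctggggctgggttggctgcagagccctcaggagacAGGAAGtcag
The match begins 128 bases before the start in Rag1, 60 and 49 bases before it in Ptcra, and 175, 82 and 10 bases before it in Lck. The other Lck window, downstream of the printed one, holds 1 match, 114 bases before its start. Searched on both strands of the whole window, CAGCTG was present in 26.7% of the 251 windows of thymus genes at 16-fold or more, against 16% of all 16814 windows of tested genes. AGGAAG was present in 45.4% against 33.6%, and TGTGGT, a RUNX core, in 22.7% against 13.6%. Over the 1379 genes called in thymus that had a window, the shares were 18.2%, 35% and 14.4%. CTTTGA, a TCF core, was near the share of all tested genes. It was present in 13.9% of the windows at 16-fold or more and 13.5% of those called in thymus, against 13.2%. GGGCGG, the GC box read by SP1, was present in 33.5% of the windows at 16-fold or more against 54.2%, and the observed over expected CpG ratio had a median of 0.306 there against 0.674. These shares are descriptions without a test, and windows differ in base composition.

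Genes of later T cells and of leukocytes at large were also higher in thymus. Of 14 measured markers of mature and regulatory T cells 8 were called in thymus, against 10.1% of all genes, with a median of 3.17. Cd27, a costimulatory receptor, stood at 5.29 ± 0.53. Il7r, the receptor for the survival cytokine interleukin 7, stood at 4.05 ± 0.65. Klf2 and S1pr1, which mark cells ready to leave, were 0.88 ± 0.48 and -0.32 ± 1.29 and were not called. Foxp3, the factor of regulatory T cells, was above background in thymus on 5 arrays and in the pool on none, and was not called either (0.77). With Agilent's log ratios Foxp3 read 2.57 and was called (adjusted p = 0.0024). All 7 measured GIMAP genes, lymphocyte GTPases, were called, from Gimap4 (at least 9.39-fold) to Gimap1 at 6.29 ± 0.39. Of 24 leukocyte signalling genes 22 were called, with a median of 3.91. Coro1a, which organises actin in leukocytes, stood at 6.29 ± 0.43 and Itgal, the alpha chain of the integrin LFA-1, at 6.04 ± 0.50.

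Markers of thymic epithelium were higher in thymus. Of 19 measured markers 18 were called in thymus, with a median of 3.56. Among cortical genes, Ccl25, the chemokine that attracts thymocytes, read 6.41 to 7.82 (median 6.60, 112-fold), and Psmb11, the catalytic subunit of the thymoproteasome, read 4.39 to 6.06 (median 4.85, 33.6-fold). Foxn1, the master factor of this epithelium, was 1.65 ± 0.48 and called (adjusted p = 0.0175), though not without replicate 1, 2 or 3 (adjusted p of at most 0.0596). Among medullary genes, Krt5 stood at 4.29 ± 0.62, Ccl19 at 4.39 ± 0.84 and Aire, which drives display of self antigens, at 2.34 ± 0.89, with replicate 4 lowest at 0.98. The adhesion gene Epcam was seen only in thymus and was at least 11.7-fold higher. Cldn3, a tight junction gene, was not called at 0.69 ± 1.18. Other Ccl25 probes read 5.74 ± 0.24 and 0.36 ± 0.56.

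Genes of antigen presentation were higher in thymus too. Of 14 measured genes of the major histocompatibility complex and its loading machinery 12 were called, with a median of 3.26. The class II chain H2-Aa read 5.76 to 7.01 (median 6.51, 87.0-fold) and Cd74, the invariant chain, stood at 6.24 ± 0.55. The class I genes H2-K1 and H2-D1, which resemble other class I genes closely, stood at 3.70 ± 0.82 and 2.90 ± 0.79. B2m, their light chain, was 1.02 ± 1.10 and was not called. The catalytic proteasome subunits split by type. The immunoproteasome genes Psmb8, Psmb9 and Psmb10 read 3.73 ± 0.44, 4.59 ± 0.45 and 1.60 ± 0.20 and were called, while the constitutive subunits they replace, Psmb5, Psmb6 and Psmb7, lay between -0.36 and -0.26 and were not. H2-D1 and Psmb10 were not called without loess (2.01 and 0.73). The other H2-D1 probe read 0.13 ± 0.31, and with the mean of all probes H2-D1 was not called (1.51, adjusted p = 0.0694).

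Markers of other cell types were called in unequal numbers, to be read beside the 10.1% of all genes called in thymus and 12.2% in fibroblasts. Of 13 B cell genes 8 were called, and the list's median differed widely between mice. It was 4.45, 4.94 and 3.25 in replicates 1, 2 and 5, and 1.24, 0.76 and 1.71 in replicates 3, 4 and 6. Ms4a1, which encodes CD20, read 5.75, 7.11 and 6.30 in the former and 3.30, 3.22 and 3.28 in the latter. Ighm and Jchain were high in all, at 6.69 ± 0.55 and 6.11 ± 0.54. Of 12 measured genes of natural killer and cytotoxic cells 9 were called, with Gzma, a granule protease, at 5.74 ± 0.57. Dendritic markers had 3 of 10 called, led by Irf8 at 3.82 ± 0.36. Macrophage genes were mixed, with 4 of 18 called in thymus and 2 in fibroblasts. The complement genes C1qb and C1qc stood at 2.22 ± 0.68 and 2.45 ± 0.47. Cd14 (-1.98 ± 0.76) and Adgre1 (-1.44 ± 0.37), a macrophage surface receptor, were higher in the pool, Adgre1 close to the threshold (adjusted p = 0.0471) and not called without replicate 2, 3, 4 or 6 (adjusted p of at most 0.142). C1qb and C1qc were not called without loess (1.61 and 1.60). Of 13 endothelial genes 6 were called in thymus, among them Pecam1 at 3.31 ± 0.91, while Flt1, a receptor for vascular growth factor, was higher in fibroblasts at -2.54 ± 0.66. Of 5 measured red cell genes 2 were called in thymus, with a median of 0.20, and 6 more were not measured. Hba-a1, the alpha globin of red cells, stood at 5.00 ± 0.41, and another probe read 5.39 ± 0.40. Alpha globin has a near-identical copy, which may share this signal.

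Many genes of white and brown fat were higher in thymus RNA, and 1 of 5 measured parathyroid and thyroid genes was, against 10.1% of all genes. Of 15 adipocyte genes 11 were called, with a median of 3.43. Adipoq, the hormone adiponectin, read 4.64 to 5.74 (median 5.45, 39.5-fold). Of 7 brown fat genes 4 were called, among them Ucp1, the uncoupling protein, at 4.59 to 5.82 (median 5.35, 39.0-fold), with Cidea at 5.52 ± 0.57 and Cox8b at 6.79 ± 0.61. Pth, parathyroid hormone, read 5.01 to 7.24 (median 5.62, 55.3-fold, adjusted p = 1.46e-06), yet Gcm2, the factor that specifies parathyroid cells, was 0.51 ± 0.50 and the thyroid gene Tg was not called. Whether this RNA came from tissue taken along with the thymus was not tested.

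**Figure D3:**
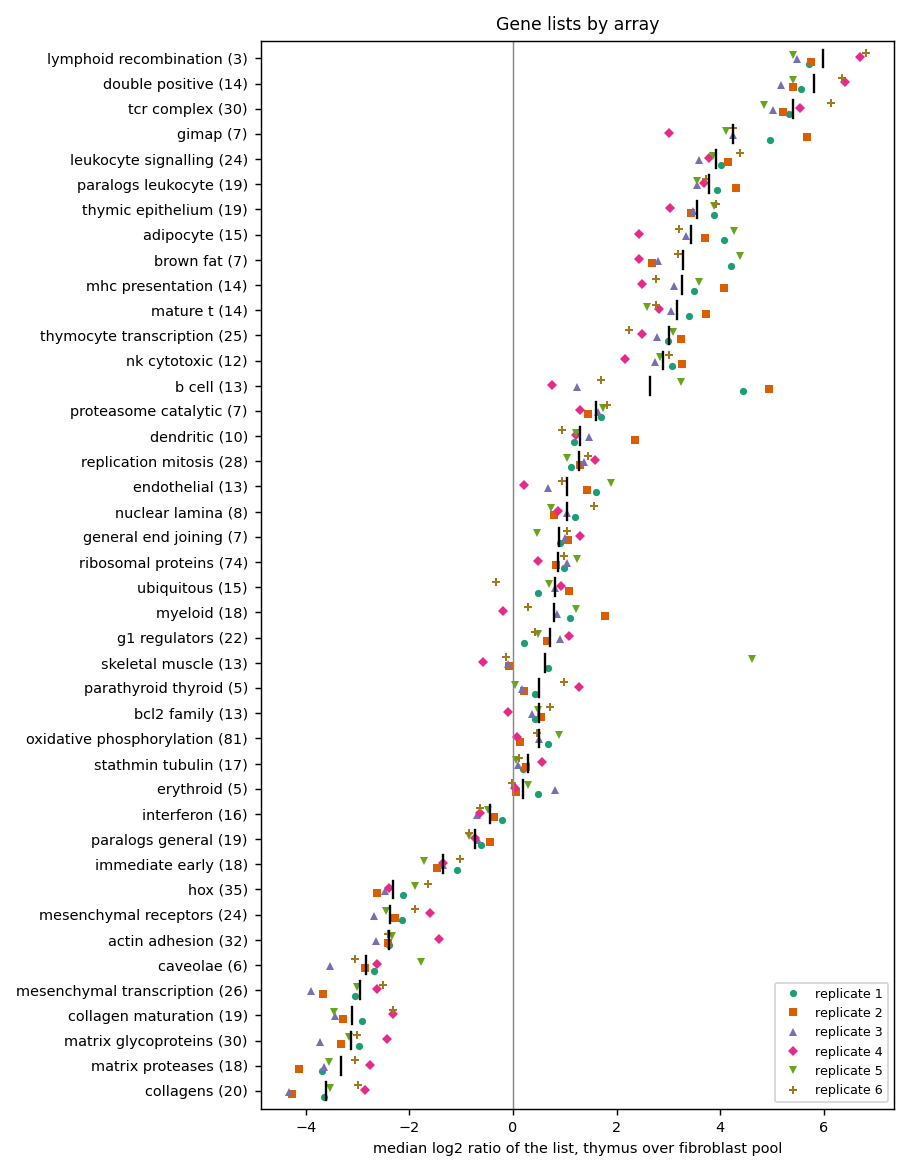
Median log2 ratio of thymus over the fibroblast pool for 42 gene lists in each of the 6 arrays (markers), with the number of measured genes in brackets and a bar at the median of the gene means. T cell lists lie highest and collagens lowest, the B cell list is spread from 0.76 to 4.94, and replicate 5 stands alone at 4.61 for skeletal muscle.

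On the fibroblast side, secreted signals, matrix and mesenchymal control genes held the largest ratios. Cxcl5, a neutrophil chemokine, led the genes measured in both channels. It read -8.06 to -5.18 with a median of -7.51, and all 6 mice lay far below the pool, a 125-fold difference (adjusted p = 4.57e-06). Ptgs2, the inducible cyclooxygenase, read -7.20 to -5.43 (77.3-fold). Itga11, a collagen receptor of fibroblasts, read -7.22 to -4.97 (84.0-fold) and Twist2, a mesenchymal transcription factor, read -6.80 to -4.99 (61.9-fold). Slit3, a guidance ligand (-6.24 ± 0.62), Vgll3, a cofactor of TEAD factors (-6.17 ± 0.85), Ccn5, a matricellular protein (-5.92 ± 0.81), and Aspn, a small leucine-rich proteoglycan (-5.91 ± 0.60), followed. Mmp3, the protease stromelysin, stood at -5.78 ± 1.11. Hs6st2, a heparan sulfate sulfotransferase, stood at -6.40 ± 0.96. Edil3, an integrin ligand, read -6.42 ± 1.25, while its 3 other probes lay between -1.14 and 0.22. Of the genes seen only in fibroblasts, Hoxb8 had a fitted fold of 14.7, the chemokine Cxcl2 of 14.1 and Chsy3, a chondroitin synthase, of 10.7, each read against thymus signal that was not above background. Rspo3, an amplifier of Wnt signals, had a fitted fold of 9.59 on the same terms. Those of Pi15, Dner, Itpripl2, Apol8, Srrm4, Mical2, Baalc and Tbx4 ran from 8.75 down to 4.94. Other probes read -0.22 for Srrm4, -0.39 and -1.33 for Baalc and -0.81 for Tbx4. With the mean of all probes Edil3 (-1.82), Srrm4 (-1.42) and Baalc (-1.37) were not called.

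Collagens and the enzymes that build them were higher in fibroblasts almost without exception. Of 20 collagen genes 19 were called in fibroblasts, with a median of -3.62. Col1a1, the main chain of collagen I, read -5.89 to -3.78 (median -5.38, 34.6-fold), and its pool spot was saturated on 4 of 6 arrays. Col8a1 read -6.00 to -3.87 (38-fold). The exception was Col15a1, a collagen of basement membranes, at 0.64 to 1.63 above the pool in all 6 mice but not past 2-fold (adjusted p = 0.304). With Agilent's log ratios Col15a1 was called in thymus (1.84). Of 19 genes of collagen maturation 17 were called, with a median of -3.11. Lox, the enzyme that cross-links collagen, read -6.57 to -4.27 on the 5 arrays that kept its spot (57.2-fold). P4ha2, a prolyl hydroxylase, stood at -4.63 ± 0.64 and Serpinh1, the collagen chaperone, at -3.59 ± 0.35. P4ha3 (-1.42 ± 0.38) and Plod1 (-1.10 ± 0.24) were not called. P4ha3 was called with Agilent's log ratios (-2.64), without background correction (-1.47) and without replicate 5 (-1.52).

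Other matrix genes followed the collagens. Of 30 matrix glycoproteins and proteoglycans 27 were called, with a median of -3.12. Fbn1, the microfibril protein fibrillin, read -6.17 to -4.70 (46.2-fold), Thbs1 stood at -5.65 ± 0.89 and Lum, which spaces collagen fibrils, at -5.25 ± 0.48. Eln, Thbs2 and Igfbp7, at -1.40 ± 0.65, -0.81 ± 1.52 and -1.27 ± 0.64, were not called. Eln and Igfbp7 were called with Agilent's log ratios (-1.58 and -1.62) and without loess (-1.84 and -2.09). Of 18 matrix proteases and their inhibitors 17 were called, with a median of -3.32. Mmp13, a collagenase, read -6.28 to -4.63 (median -5.69, 45.3-fold, adjusted p = 1.19e-06). Plau, the urokinase gene, was not called at -1.38 ± 0.36, but was with Agilent's log ratios (-2.02) and without background correction (-1.58).

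The promoters of 3 fibroblast genes are shown for comparison with the lymphoid ones, from the same RefSeq table and likewise picked after the matches were seen. Capitals mark TGANTCA, the AP-1 motif (N is any base), in Mmp3 and Mmp13, and GGAATG or its reverse complement, a TEAD core, in Ccn1, which encodes a matricellular protein that responds to cell stretch (-3.87 ± 0.75). Mmp3 lies at chr9:7445572-7445821 and Mmp13 at chr9:7272264-7272513, both on the plus strand, and Ccn1 at chr3:145649986-145650235 on the minus strand.
Mmp3: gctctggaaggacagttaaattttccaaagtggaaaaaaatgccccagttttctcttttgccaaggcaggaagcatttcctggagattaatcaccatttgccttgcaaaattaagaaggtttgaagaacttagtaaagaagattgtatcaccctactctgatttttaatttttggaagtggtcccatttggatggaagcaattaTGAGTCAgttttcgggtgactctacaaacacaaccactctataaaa
Mmp13: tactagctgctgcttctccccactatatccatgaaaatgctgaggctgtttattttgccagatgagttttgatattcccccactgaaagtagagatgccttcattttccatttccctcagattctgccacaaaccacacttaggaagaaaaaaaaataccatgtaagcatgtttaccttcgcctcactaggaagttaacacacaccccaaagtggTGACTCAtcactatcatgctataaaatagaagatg
Ccn1: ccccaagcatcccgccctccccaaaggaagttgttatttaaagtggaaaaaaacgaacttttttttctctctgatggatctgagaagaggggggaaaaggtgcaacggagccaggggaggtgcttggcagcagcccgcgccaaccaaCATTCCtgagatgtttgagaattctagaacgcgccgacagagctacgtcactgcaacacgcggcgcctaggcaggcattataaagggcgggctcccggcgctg
The match begins 46 bases before the start in Mmp3, 35 in Mmp13 and 103 in Ccn1. TGANTCA was present in 8.91% of the 202 windows of fibroblast genes at 16-fold or more, against 6.19% of windows of all tested genes. GGAATG was present in 17.8% against 12.8%. CAGCTG, at 15.3%, and AGGAAG, at 33.7%, were near the shares of all tested genes.

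The contractile and adhesive apparatus was higher in fibroblasts with more exceptions. Of 32 genes of actin filaments and focal adhesions 20 were called in fibroblasts and 0 in thymus, with a median of -2.39. Cald1, an actin-binding regulator of contraction, read -6.37 to -4.47 (46.4-fold), and Vcl, the adhesion protein vinculin, stood at -4.03 ± 0.33. Itga5, the fibronectin receptor chain, stood at -3.53 ± 0.57 and Tagln, a smooth muscle protein, at -3.81 ± 0.66. Acta2, smooth muscle actin, was -1.70 ± 0.98 and not called, while its 3 other probes read -1.69 ± 1.35, -2.73 ± 0.89 and -6.56 ± 0.87. Acta2 was called without replicate 4 (-2.05), without loess (-2.47) and with the mean of all probes (-3.17). Pxn (1.23 ± 0.29), Tln1 (0.45 ± 0.36) and Csrp1 (0.06 ± 0.28) lay above 0 and were not called. The list's median was -1.42 in replicate 4 and -2.65 to -2.33 in the others. All 6 genes of caveolae, the membrane pits of mesenchymal cells, were called, with Cav1 at -3.67 to -1.82.

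Mesenchymal transcription factors were higher in the pool, 19 of 26 called with a median of -2.95. Foxc2, a forkhead factor, read -6.49 to -4.60 (50.9-fold). The TEAD pathway was represented by Wwtr1, which encodes the coactivator TAZ, at -4.73 ± 0.82, Yap1 at -3.02 ± 0.39 and Tead2 at -3.94 ± 0.48. Twist1, Snai1 and Snai2, factors of the mesenchymal state, lay between -3.91 and -3.73. Zeb1 (-0.21 ± 0.32) was not called, and Zeb2 (-2.10 ± 0.42) was.

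Homeobox genes of the HOX clusters, which record position along the body, were unequal among themselves. Of 35 measured 21 were called in fibroblasts and 0 in thymus, against 12.2% and 10.1% of all genes. Their median was -2.31. The lowest ratios belonged to Hoxa11 (-6.49 to -4.12, 44.5-fold), Hoxd13 (-6.08 to -4.42, 41.8-fold) and Hoxc9 (-5.90 to -3.52, 30.9-fold), genes from the posterior part of their clusters. Anterior members differed. Hoxa2 (-0.74 ± 0.36), Hoxa3 (-0.14 ± 0.42) and Hoxa4 (-0.35 ± 0.52) were not called, whereas Hoxb2 (-3.03 ± 0.72, with another probe at -0.53 ± 0.80) and Hoxd4 (-2.95 ± 0.81) were. The posterior gene Hoxa13 was not called at -0.74 ± 0.37, and its other probe read -1.88 ± 0.44. Hoxc4 and Hoxb6 lay above the pool on average, at 2.07 ± 1.69 and 1.47 ± 1.33, and were not called. Both were highest in replicates 4 and 6, and another Hoxb6 probe read -2.78 ± 0.60. Tbx4, a T-box factor known from the hindlimb, was above background only in the pool, with a fitted fold of 4.94 there.

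Receptors of mesenchymal cells were higher in fibroblasts for 15 of 24 genes, against 12.2% of all genes, with a median of -2.37. Pdgfra, a receptor for platelet-derived growth factor, read -4.95 to -3.50 (16.3-fold), and Il1rl1, the receptor for interleukin 33, stood at -3.91 ± 0.99. Thy1, which both thymocytes and fibroblasts carry, was the only member called in thymus, at 1.68 to 2.71 (median 2.10, 4.44-fold), and it was not called without loess (1.33). Tgfbr1 (1.22 ± 0.23) and Eng (0.34 ± 0.82) lay above 0 and were not called.

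Cell cycle control genes split between the tissues, including the 2 genes the study deleted in other mice. Cdkn1b, which encodes the kinase inhibitor p27Kip1, read 1.37 to 2.19 (median 1.85) on the 5 arrays that kept its spot and was above the pool on each, 3.47-fold (adjusted p = 0.00486). The pool also holds RNA of fibroblasts that lack p27, and 2 other Cdkn1b probes read 0.28 ± 0.39 and -0.50 ± 0.28. The call was lost when arrays were centred without loess (1.00, adjusted p = 1.00) and with the mean of all probes (0.41, adjusted p = 1.00). Stmn1, which encodes stathmin, a destabiliser of microtubules, read 3.22 to 3.87 (median 3.54, 11.6-fold, adjusted p = 1.12e-06), and the other probe read 3.1 ± 0.28. Its thymus spot was saturated on 3 arrays, and the pool holds RNA of fibroblasts that lack stathmin.

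Of 22 regulators of the G1 phase 8 were called in thymus and 6 in fibroblasts, against 10.1% and 12.2% of all genes. The D cyclins, which start the cycle, went opposite ways. Ccnd3 read 3.38 to 4.44 (median 3.71, 13.8-fold), whereas Ccnd1 read -3.09 to -1.89 (5.41-fold) and Ccnd2 -2.74 to -1.33 (4.48-fold) below the pool. The kinase inhibitors split as well. Cdkn2c and Cdkn2d stood at 2.53 ± 0.22 and 2.76 ± 0.34, while Cdkn1a, which encodes p21, read -3.93 to -2.34 (9.23-fold), Cdkn1c stood at -2.84 ± 0.52, Cdkn2a at -3.49 ± 0.66 and Cdkn2b at -3.88 ± 0.66. The pocket protein genes Rb1, Rbl1 and Rbl2 were all called in thymus, at 2.30 ± 0.26, 2.57 ± 0.33 and 2.09 ± 0.61. E2f2, an activator of S phase genes that the pocket proteins restrain, read 4.96 to 6.29 (44.4-fold), whereas E2f1 was 0.60 ± 0.32 and not called. Without loess the list had 4 calls in thymus and 8 in fibroblasts, and Cdkn2c (1.66), Rb1 (1.47) and Rbl2 (1.43) were not called. The other Rb1 probe read 0.26 ± 0.35, and with the mean of all probes Rb1 was not called (1.28, adjusted p = 0.0973).

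Replication and mitosis genes were modestly higher in thymus, and this depended on the normalization. Of 28 genes 11 were called in thymus and 0 in fibroblasts, against 10.1% and 12.2% of all genes. Their median was 1.28. Mcm2, a subunit of the replicative helicase, read 2.41 to 3.34 (6.83-fold), Rrm2, which makes deoxynucleotides, stood at 2.51 ± 0.32 and Mki67, a marker of dividing cells, at 2.38 ± 0.48. Cdk1 (-0.14 ± 0.51) and Foxm1 (0.02 ± 0.31) were not called. With median centring in place of loess 1 of the 28 was called and the median was 0.44, with Rrm2 at 1.62 and Mki67 at 1.52. Among 17 stathmin and tubulin genes 1 was called in thymus, Stmn1, and 3 in fibroblasts, a share near the 22.4% of all genes. Stmn2 (-1.93 ± 0.51), the alpha tubulin gene Tuba1a (-2.78 ± 0.28) and the beta tubulin gene Tubb6 (-3.83 ± 0.55) were called in fibroblasts, and the tubulin genes of close sequence may share signal. The other Stmn2 probe read 0.65 ± 0.65, and with the mean of all probes Stmn2 was not called (-0.64, adjusted p = 1.0).

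Related genes of one family often took different sides. Of 19 leukocyte members of families with a general counterpart 17 were called in thymus, with a median of 3.79. Of the 19 counterparts 4 were called in thymus and 7 in fibroblasts, with a median of -0.74. Lcp1, the leukocyte plastin, stood at 3.96 ± 0.58 and Pls3, the plastin of solid tissues, at -4.37 ± 0.39 (n = 5). Dock2 and Dock1, activators of Rac, stood at 3.50 ± 0.84 and -2.24 ± 0.31, and Stk4 and Stk3, the kinases of the Hippo pathway, at 3.50 ± 0.33 and -1.54 ± 0.27. Rac2 was 4.42 ± 0.30 while Rac1, which all cells use, was 0.02 ± 0.47. Lmnb1, a lamin of all nuclei, read 2.98 to 3.26 (8.61-fold) and Lmna, the lamin of stiff tissues, -2.42 to -0.82 (3.60-fold). The split was not general. Hmgb1 (3.80 ± 0.75), Syk (2.34 ± 0.93), Plcg1 (2.03 ± 0.29) and Vasp (2.20 ± 0.50) were called in thymus although they stood among the counterparts (the last 3 not without loess), and Plcg2 (0.93 ± 0.94) and Evl (0.35 ± 0.40) were not called. The 2 other probes of Plcg1 read -0.36 ± 0.45 and 1.33 ± 1.08. With the mean of all probes Plcg1 (1.00), Stk4 (1.21) and Stk3 (-0.54) were not called. Differences between the members of a pair were not tested.

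**Figure D4:**
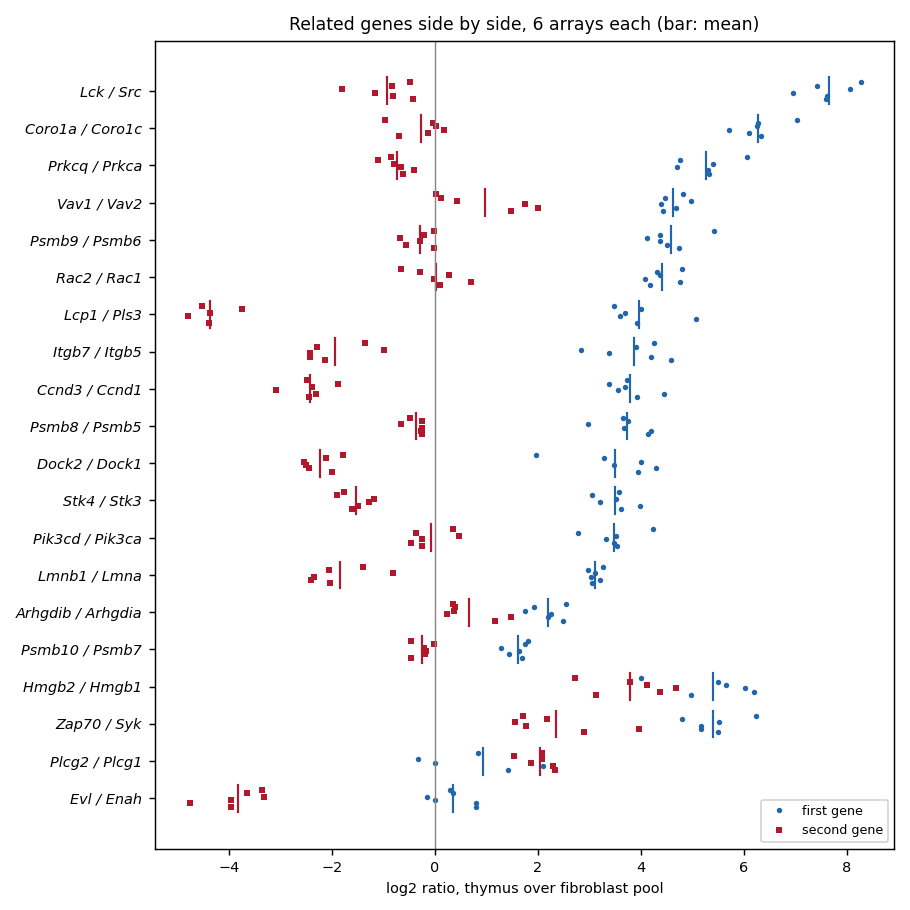
Log2 ratio of thymus over the fibroblast pool for 20 pairs of related genes, the first gene as blue circles and the second as red squares, with 6 arrays each (5 for Pls3) and bars at the means. In pairs such as Lcp1 and Pls3 or Ccnd3 and Ccnd1 the members lie on opposite sides of 0, while in Hmgb2 and Hmgb1 or Zap70 and Syk both lie above it.

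Nuclear, survival and response genes moved in smaller numbers. Beside Lmnb1, the membrane protein genes Lbr (3.61 ± 0.49) and Tmpo (3.20 ± 0.31) were called in thymus. Of 13 measured BCL2 family genes 3 were called, a share near the 22.4% of all genes. Bcl2l1, a survival factor of double-positive thymocytes (2.21 ± 0.49), and Bmf, a killer protein (2.75 ± 0.48, n = 5), were called in thymus and Pmaip1, another killer protein (-2.63 ± 0.33, n = 5), in fibroblasts. The 2 other probes of Bcl2l1 read -1.63 ± 0.47 and -0.34 ± 0.49, and with the mean of all probes neither Bcl2l1 (0.08) nor Bmf (0.93) was called. Of 18 immediate early genes 7 were called in fibroblasts, against 12.2% of all genes. The 7 included Fos (-3.46 to -2.38, 7.92-fold), Fosl1 (-3.82 ± 0.60) and Ier3 (-4.85 ± 0.38). Myc, a driver of growth, was called in thymus at 1.99 to 2.55 (4.49-fold), but not without loess (1.40). Of 16 interferon-stimulated genes 3 were called, all in fibroblasts, where 12.2% of all genes were called, with Isg15 at -2.33 ± 0.22.

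Housekeeping genes gave a sense of the scale. Of 15 genes often used as references 1 was called, Eef1a1 at 1.59 ± 0.30, which was not called without loess (0.80) or with Agilent's log ratios (1.22). Hprt stood at -0.21 ± 0.12 and Actb at -0.99 ± 0.42. The list's median was 0.81, against 0.115 over all genes, and 9 of the 15 lay above 0. Its array medians ran from -0.32 to 1.075. Without loess the list's median was 0.03. Of 74 ribosomal protein genes 15 were called in thymus and 1 in fibroblasts, against 10.1% and 12.2% of all genes. Over both directions the share was near the 22.4% of all genes. Their median was 0.88, and many have near-identical copies in the genome. Without loess 0 of them were called in thymus and 3 in fibroblasts, with a median of 0.08. Of 81 oxidative phosphorylation genes 2 were called, Cox7a1 (3.28 ± 0.82) and Cox8b, both of them also on the brown fat list. Their median was 0.50, and -0.34 without loess.

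The mice differed from each other in genes of other tissues. Among genes measured in both channels on all arrays, the largest SD was that of Lor, the cornified envelope protein loricrin, which read 7.30 in replicate 5 and -2.83 to -1.02 in the others. Acta1, skeletal muscle actin, read 4.63 in replicate 5 and -4.42 to -2.87 elsewhere, and the skin genes Crct1 (4.94) and Mt4 (5.63) and the muscle gene Tnnt3 (6.40) were likewise high in replicate 5. Cyp2f2 and Scgb3a2, known from airway epithelium, read 4.86 and 7.58 in replicate 1 and 5.96 and 7.60 in replicate 5, against at most 0.28 and 1.27 in the other 4. Reg3g and Aldh1a1 had the same 2 mice on top, at 6.15 and 3.47 in replicate 1 and 6.45 and 3.47 in replicate 5. Slpi, a protease inhibitor of epithelia, was high in replicates 2 and 5.

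The median of the muscle list rested on replicate 5, while its 3 calls in thymus did not. Of 13 measured 3 were called in thymus, against 10.1% of all genes. The 3 were Myl1 (1.17 to 7.07, adjusted p = 0.0149), Mylpf (1.28 to 5.15, adjusted p = 0.00912) and Myh4 (1.31 to 4.61, adjusted p = 0.0246), and the list's median was 0.63. Without replicate 5 the median was 0.00, and the 3 genes were still called, at 2.63, 2.21 and 1.82. Myh4 was not called without replicate 4 (adjusted p = 0.0574) or in a fit of all 24 arrays (adjusted p = 0.0952), Mylpf not without loess (2.31, adjusted p = 0.0515) and Myl1 not with the mean of all probes (2.27, adjusted p = 0.128). Acta1, which is also on the muscle list, Crct1 and Lor were not called with all 6 mice. Without replicate 5 they were called in fibroblasts, at -3.65, -2.46 and -2.12.

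**Figure D5:**
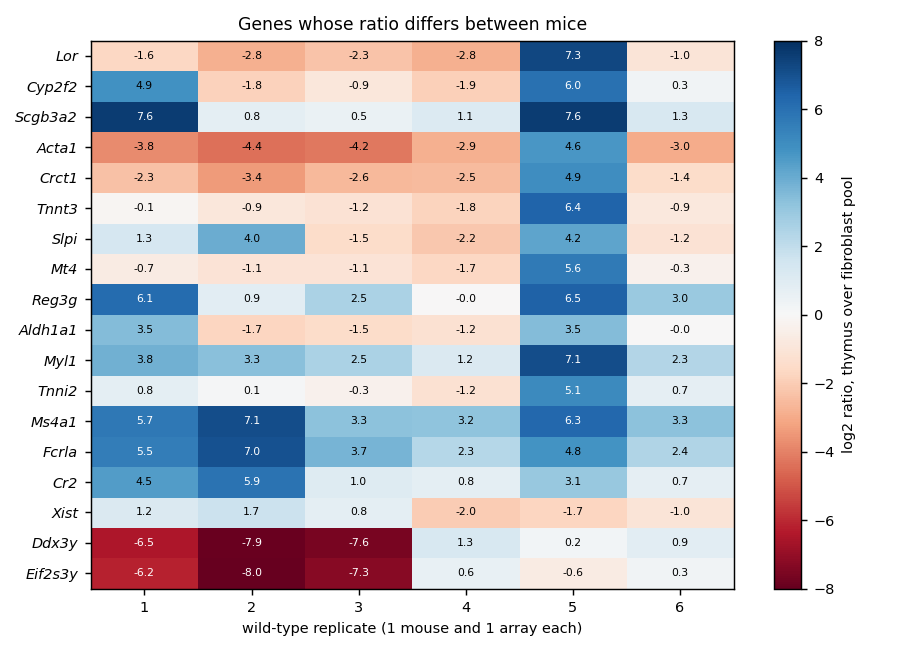
Log2 ratio of thymus over the fibroblast pool in each of the 6 mice (columns) for the 10 genes of largest SD, 2 muscle genes, 3 B cell genes and 3 sex-linked genes (rows), with blue for thymus higher and red for fibroblasts higher. Replicate 5 alone is high for skin and muscle genes, replicates 1 and 5 for airway genes, replicates 1, 2 and 5 for B cell genes, and replicates 1 to 3 are low for the Y-linked genes.

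Fibroblast lists mostly lay nearest to 0 in replicates 4 and 6. These arrays had the lowest 99th percentiles of thymus intensity (56.3 and 110 kilo-units) and the highest of the pool (190 and 166). Of 8 fibroblast lists with a median below -1, the median lay nearest to 0 in replicate 4 for 5 and in replicate 4 or 6 for 7. Collagens had a median of -2.85 in replicate 4 and -2.99 in replicate 6 against -4.32 to -3.54 in the others. Double-positive markers went the other way, at 6.41 and 6.35 in replicates 4 and 6 against 5.17 to 5.57. The part of brightness in these differences was not tested.

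The other genotypes were read against the same pool. The T cell receptor list had a median of 5.35 ± 0.46 in wild-type mice (mean and SD of 6 arrays, as for each genotype). Mice without p27 stood at 5.13 ± 2.45, mice without stathmin at 5.22 ± 0.55 and mice without both at 5.17 ± 0.18. Collagens stood at -3.60 ± 0.61, -2.59 ± 1.16, -3.70 ± 0.36 and -3.67 ± 0.34 in the same order. The p27 knockout ranged from 0.15 to 6.38 for the T cell receptor list and from -3.84 to -0.72 for collagens, while the lowest T cell receptor value in wild type was 4.84. Differences between genotypes were not tested here.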

How the data were processed

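RNA of 6 wild-type thymuses (Cy5) and of a single fibroblast pool (Cy3) was hybridised to 2-colour Agilent arrays, and the labels name each thymus sample as a separate mouse. The deposited scanner files hold Agilent Feature Extraction 9.1.3.1 intensities per spot, taken without background subtraction per the file headers, and a log10 ratio of red over green made by the same software. The authors also deposited log2 values, which followed the mean brightness of both channels (r of at least 0.9948) and not their ratio (r from -0.45 to 0.168). They were not used, and their centring is unknown.

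Mean signals were corrected by normexp (offset 50) and loess-normalized within each array in limma 3.58.1 (R 4.3.3, data.table version 1.17.8). Control spots and outlier spots (38 to 177 per array) were left out. Of 41174 gene probes among 45018 spots, 31997 were kept because they stood well above background in either channel on at least 3 of 6 arrays. The brightest probe stands for each of 21716 genes. RefSeq (GRCm38.p6) named 22951 probes by accession. The other 18223 took the name in the file, which was replaced by a newer symbol for 3109 of them. The genome build of the array design was not used here. Genes were tested with limma's treat function against 2-fold, Benjamini-Hochberg adjusted. On simulated data for this comparison (21716 genes) the test recovered 4 of 50 genes changed by 1.5 on the log2 scale. It recovered 36 of 50 at 2, 46 of 50 at 3 and 48 of 50 at 4, with 0 false calls. The unchanged genes were simulated as independent noise around 0, so the 0 false calls cannot speak for genes near 2-fold. No arrays had identical values. The number of arrays limits the precision.

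Named are the 12 largest ratios and 12 largest lower bounds in each direction, the 10 most variable genes, Cdkn1b, Stmn1 and members of the gene lists. The lists and the comparison were chosen with earlier results of these data known. Alternatives changed the background correction, the normalization, the filter, the probe, the margin, the arrays in the fit and the replicates. Some withheld genes that these rules name are not reported here.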

Additional observations from a re-analysis of the deposited data

Results flagged for a closer look

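Of 285 sets of 6 values examined (list medians and named genes), 20 held an array far from the other 5 by Dixon's rule, which chance alone meets in about 1 set in 20. Of these, 5 (Lor, Acta1, Crct1, Mt4 and Tnnt3) are among the 10 genes named for their large SD, so their count cannot be set against chance. Replicate 5 stood high for the cornified envelope genes Lor (7.30) and Crct1 (4.94), for Mt4 (5.63), for the muscle genes Acta1 (4.63), Tnnt3 (6.40), Mylpf (5.15) and Myh4 (4.61), and for the median of the muscle list (4.61). It stood low for Ptprc (7.04), Lcp2 (6.19) and Tgfbr1 (0.77).

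Replicate 4, the dimmest in the thymus channel, stood nearest to 0 for the actin and adhesion list (-1.42) and was highest for Tcf7 (6.42). Replicate 6 was highest for Ccl25 (7.82) and Pth (7.24) and lowest for Pecam1 (1.51). Replicate 2 was highest for the dendritic list (2.36), Foxp3 (1.90) and Lcp1 (5.07), and replicate 3 was lowest for Ighm (5.65). What sets these arrays apart was not tested.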

How the results depend on the processing

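Agilent's log ratios gave 3599 calls in thymus and 3325 in fibroblasts, a test against a ratio of 1 gave 7690 and 6629, and a test against 4-fold gave 788 and 892. Genes detected on one side only numbered 2173 for thymus and 158 for fibroblasts with at least 5 arrays on that side and at most 1 on the other. Without 1 replicate the calls ranged from 1935 to 2244 in thymus and from 2319 to 2735 in fibroblasts. Of 247 named genes, 167 kept direction and call under every alternative run, and 0 of those called changed sign. Over all genes, 7 called in thymus and 5 called in fibroblasts changed sign with the mean of all probes, and 2 and 3 with the filter on both channels. Among the named genes, median centring in place of loess ended 21 calls, the mean of all probes 16 and the 4-fold margin 44. The median of all genes was 0.245 with Agilent's log ratios and -0.053 with median centring, against 0.115. Median centring turned the medians of oxidative phosphorylation (-0.34), stathmin and tubulin (-0.54) and BCL2 family genes (-0.29) below 0. Why was not tested. No paired analysis was possible because the comparison is a ratio within each array of a single group. Spots near background limit what can be read of low genes.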

Other observations

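Some genes outside the fixed lists varied between mice in the same arrays and are given as values, chosen after they were seen. Pitx1, a homeobox factor, had a median of -4.62 and read 0.34 in replicate 5. Lce3c, a gene of the skin barrier, read 5.32 in replicate 5 and -0.63 to 0.10 in the other mice.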
